A study of Mus musculus with 4 samples.

Results

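The aminoacyl-tRNA synthetases of mouse were followed through RNA of cultured oesophageal cells with and without a mutant allele of the transcription factor NRF2. The members are 36 genes taken by symbol from the deposited table of 24444 genes, 20 for cytosolic enzymes and 16 for mitochondrial enzymes, the latter recognised by a final 2 in the name. All 36 were found, under the older mouse names, and all passed the filter on low values. Poly(A) RNA came from 2 wild-type libraries (C57BL/6J, no treatment, no cassette) and 2 libraries titled HET (C57BL/6J, CRISPR/Cas9 microinjection, cassette Nfe2l2-E79Q), called E79Q cells here. Nfe2l2 is the gene of NRF2, which drives antioxidant and detoxification genes, and E79Q is a tumour-derived substitution in it. The series title speaks of a conditional mouse. The labels name no driver that switches the allele on, no age or sex of the mice, and no animal or culture for each library, so the p-values measure only the spread between these libraries, which may be technical. Every column name carries the word SV40, which the labels do not explain.

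Each synthetase joins 1 amino acid to its tRNA, the step that reads the genetic code, and animals keep separate sets of enzymes for the cytosol and for the mitochondrion, all encoded in the nucleus. Cytosolic enzymes fall into class I and class II by the fold of their catalytic domain, and several of them sit with scaffold proteins in the multisynthetase complex. When an uncharged tRNA builds up, the kinase GCN2 phosphorylates eIF2 alpha, translation of the transcription factor ATF4 goes up, and ATF4 activates genes of amino acid supply, among them many cytosolic synthetases.

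Values are variance-stabilised and log2-like, and a difference is E79Q minus wild type ± the moderated SE over 2 replicate pairs. A gene was called at a limma adjusted p under 0.05, adjusted over 10857 genes. Depth, estimated from the size of single-read steps in the table, was 12.6 to 15.2 M reads per library (M for mega). Nfe2l2 itself lay at 11.38 and 11.27 in wild type and 11.17 and 11.28 in E79Q, which does not check the genotype because the change is a substitution. It was not called (-0.10 ± 0.05), but was called lower after quantile normalization and without wild-type replicate 2 or E79Q replicate 2 (-0.15 in both). All 10 oesophageal and keratinocyte markers passed the filter, with Krt5 between 15.79 and 15.85 in every library. Of these 10, 4 were called higher and 3 lower (70.0%, against 40.4% of all genes tested). The 10 differences ran from -0.58 to 0.74, with Sox2 at -0.45 and Krt14 at -0.13 among those called lower. Of 8 fibroblast markers 1 passed the filter, Lum was at the floor in every library, and the summed normalised count of the list was 417 and 422 in wild type and 120 and 129 in E79Q. The muscle list summed to 872 and 902 against 275 and 261, and only Acta2 of its 6 genes passed the filter. The immune list summed to 184 and 164 against 371 and 405, with 4 of 6 genes at the floor, Ptprc among them, and nearly all of the sum came from Cd68 (184 and 164 against 370.2 and 405). Endothelial markers summed to no more than 23.1 in any library. Xist lay at 11.99 and 12.17 in wild type and 7.30 and 7.12 in E79Q, while the Y-linked genes Ddx3y, Eif2s3y, Kdm5d and Uty were detected in all 4 libraries. Ddx3y (0.54 ± 0.07) and Uty (0.31 ± 0.07) were called higher, and Eif2s3y and Kdm5d were higher without overlap but not called. These lists move with genotype, and their part in the synthetase results was not tested.

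Several cytosolic synthetase transcripts rose in E79Q cells by small amounts, Yars and Eprs first among them, and few mitochondrial ones were called. Of the 20 cytosolic genes, 9 were called higher and 2 lower, which is 55.0% against 40.4% of all genes tested. The share called higher among all genes was 21.5% and the share called lower 18.9%. The median SE was 0.046 over the cytosolic genes and 0.060 over all genes tested, so these shares were not taken at equal precision. The same limit holds for the cytosolic enzyme and ATF4 lists below, with median SE from 0.046 to 0.050. Of the 16 mitochondrial genes, 2 were called higher and 0 lower, or 12.5%. The median difference was 0.12 over the cytosolic genes, 0.047 over the mitochondrial genes and 0.0062 over all genes tested. The mitochondrial median was 0.021 without wild-type or E79Q replicate 2 and 0.091 without wild-type or E79Q replicate 1. The deposited values were centred on the replicate number, so leaving out either library of a pair gives the same difference. The cytosolic differences ran from -0.18 to 0.40. The values of the groups did not overlap in 18 cytosolic and 9 mitochondrial genes, against 79.2% of all genes. Higher without overlap, which after the centring equals higher in both pairs, were 12 cytosolic and 7 mitochondrial genes (41.1% of all genes), and lower without overlap were 6 and 2 (38.1% of all genes). Whether the cytosolic and mitochondrial sets differ from each other was not tested, because the members were chosen with earlier results known. Median differences by pair were 0.091 in pair 1 and 0.13 in pair 2 for the cytosolic genes, and 0.031 and 0.10 for the mitochondrial genes. Quantile normalization turned the cytosolic calls into 8 higher and 4 lower, and the fit without the replicate block gave 10 higher and 5 lower.

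**Figure D1:**
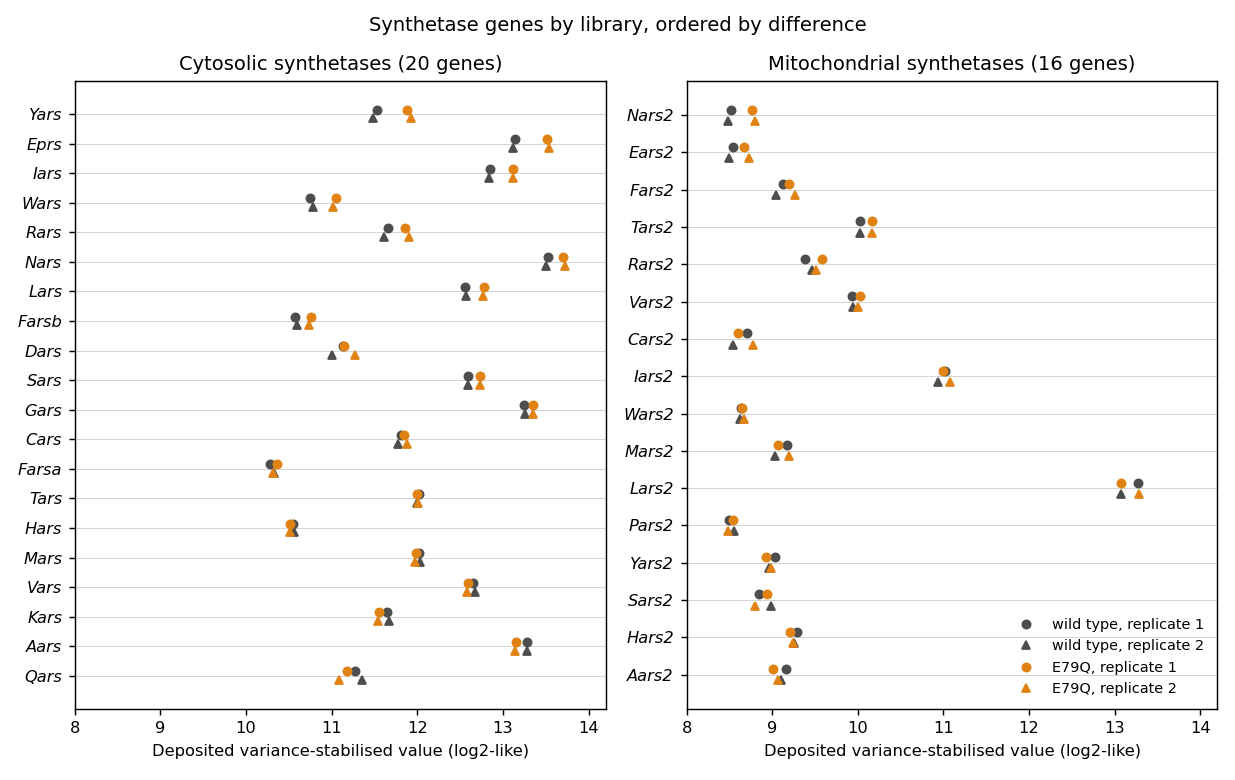
Deposited variance-stabilised values of the 20 cytosolic and 16 mitochondrial synthetase genes on the x axis, 1 point per library (grey, wild type; orange, E79Q; circle, replicate 1; triangle, replicate 2), ordered by difference. In Yars and Eprs the orange points lie to the right of the grey ones without overlap, in Lars2 each orange point lies beside a grey one, and most mitochondrial genes lie lower on the scale than any cytosolic gene.

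**Figure D2:**
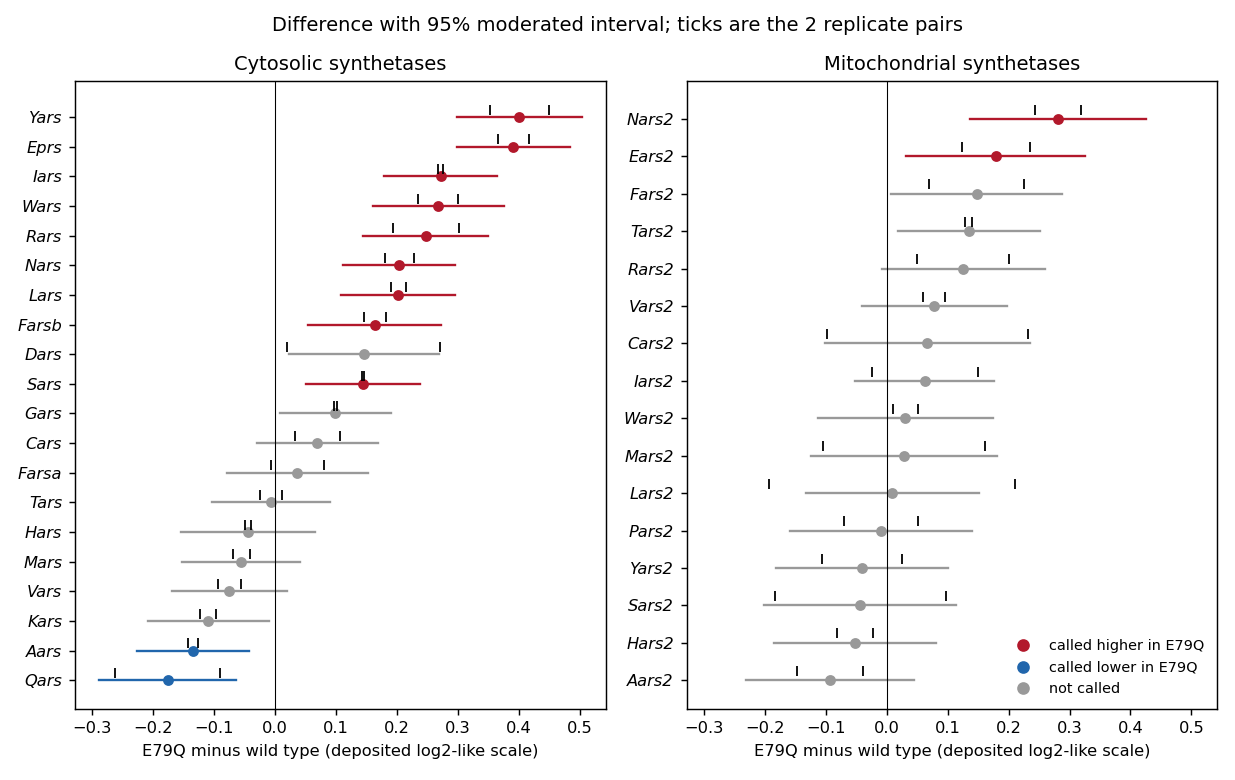
Difference E79Q minus wild type for each gene, with its 95% moderated interval as a line and the difference of each replicate pair as a tick; red, called higher; blue, called lower; grey, not called. The cytosolic genes run from -0.18 in Qars to 0.40 in Yars, and the mitochondrial ones from -0.092 in Aars2 to 0.28 in Nars2.

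The multisynthetase complex holds 8 of the cytosolic enzymes, and 4 of them were called higher and 1 lower (62.5%, against 40.4% of all genes). Eprs, a single chain that charges both glutamate and proline tRNAs, lay at 13.14 and 13.12 in wild type and 13.51 and 13.54 in E79Q. Its values did not overlap, and it rose by 0.39 ± 0.04, a 1.32-fold ratio of normalised counts (limma adjusted p = 3.62e-06). Iars, the isoleucine enzyme, lay at 12.85 and 12.84 against 13.11 and 13.12. It rose by 0.27 ± 0.04 (limma adjusted p = 0.000134), and the wild-type replicates lay within 0.01 of each other. In every gene the centring on the replicate number fixes an equal gap in E79Q, so that gap is not independent. Rars, the arginine enzyme, lay at 11.66 and 11.61 against 11.85 and 11.91, and it rose by 0.25 ± 0.05 (limma adjusted p = 0.000771). Lars charges leucine tRNA and also acts as a leucine sensor for mTORC1. It lay at 12.56 and 12.57 against 12.77 and 12.76, without overlap, and rose by 0.20 ± 0.04 (limma adjusted p = 0.00180).

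Qars, the glutamine enzyme of the same complex, went the other way. It lay at 11.27 and 11.35 in wild type and 11.18 and 11.09 in E79Q, and fell by 0.18 ± 0.05 (limma adjusted p = 0.0151). The fall was 0.090 in pair 1 and 0.26 in pair 2, and the call was lost without the replicate block (adjusted p = 0.0566). The remaining complex members were not called. Dars, for aspartate, had a difference of 0.15 ± 0.06 (limma adjusted p = 0.0560), which was 0.021 in pair 1 and 0.27 in pair 2. Mars, for methionine, lay at -0.06 ± 0.05 with an interval from -0.15 to 0.042. Kars, whose gene supplies both the cytosolic and the mitochondrial lysine enzyme, lay at -0.11 ± 0.05 (limma adjusted p = 0.0748), lower in both pairs. It was called lower after median centring and after quantile normalization.

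The scaffold proteins of the complex, encoded by Aimp1, Aimp2 and Eef1e1, all had positive differences, and 2 of the 3 were called. Among all genes tested, 40.4% were called and 41.1% were higher in both pairs. Eef1e1, which encodes AIMP3, lay at 9.56 and 9.46 in wild type and 9.88 and 9.99 in E79Q. It rose by 0.43 ± 0.06, a 1.49-fold ratio (limma adjusted p = 7.19e-05). This estimate lay above that of every enzyme of the complex. Its interval, 0.29 to 0.56, overlaps that of Eprs, 0.30 to 0.48, and the gap was not tested. Aimp2 rose by 0.17 ± 0.06 (limma adjusted p = 0.0407), a call that was lost after median centring (adjusted p = 0.0691), after quantile normalization (0.0584), without a filter (0.0746) and without E79Q replicate 2 (0.0507). Aimp1 lay at 0.10 ± 0.05 (limma adjusted p = 0.142) and was higher in both pairs.

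Outside the complex, the class I enzymes for tyrosine and tryptophan rose. Yars, which charges tyrosine tRNA and whose protein can be cut into secreted cytokine-like fragments, lay at 11.53 and 11.48 in wild type and 11.88 and 11.93 in E79Q. It had the largest difference of the 36 genes on the deposited scale, 0.40 ± 0.05, or 1.35-fold (limma adjusted p = 7.64e-06). Wars, the tryptophan enzyme and a known interferon-inducible gene, lay at 10.75 and 10.78 against 11.05 and 11.01, and rose by 0.27 ± 0.05 (limma adjusted p = 0.000583). Cars, for cysteine, lay at 0.07 ± 0.05 with an interval from -0.030 to 0.17, and Vars, for valine, at -0.07 ± 0.04 with an interval from -0.17 to 0.019. Neither was called. In all, 6 of the 10 class I cytosolic genes were called higher and 1 lower, which is 70.0% against 40.4% of all genes, with a median of 0.23. The class II genes had 3 higher and 1 lower of 10, or 40.0%, close to the share of all genes, with a median of 0.068. Eprs, which charges both glutamate and proline tRNAs, was counted in class I only. The difference between the classes was not tested.

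Among class II enzymes, Nars, for asparagine, lay at 13.52 and 13.50 in wild type and 13.70 and 13.73 in E79Q. It rose by 0.20 ± 0.04 (limma adjusted p = 0.00153), with 0.18 and 0.23 in the pairs. The phenylalanine enzyme is built from a catalytic alpha subunit, Farsa, and a beta subunit, Farsb, and their transcripts gave different calls. Farsb lay at 10.57 and 10.59 against 10.76 and 10.74 and rose by 0.16 ± 0.05 (limma adjusted p = 0.0186, and 0.0562 after quantile normalization). Farsa lay at 10.28 and 10.32 against 10.36 and 10.32, the groups overlapped, and its difference was 0.04 ± 0.05 with an interval from -0.079 to 0.15. The difference between the subunits was not tested. Sars, for serine, lay at 12.59 in both wild-type libraries against 12.73 in both E79Q libraries, and rose by 0.14 ± 0.04 (limma adjusted p = 0.0159, and 0.0629 without the mean-variance trend).

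Aars, the alanine enzyme, was the second cytosolic gene called lower. It lay at 13.28 in both wild-type libraries and at 13.15 and 13.14 in E79Q, and fell by 0.13 ± 0.04, a ratio of 0.909 (limma adjusted p = 0.0219, and 0.0818 without the mean-variance trend). Gars, whose gene makes both the cytosolic and the mitochondrial glycine enzyme, lay at 13.25 in both wild-type libraries and 13.35 in both E79Q libraries. Its difference of 0.10 ± 0.04 was not called (limma adjusted p = 0.0782), although the groups did not overlap. It was called without the replicate block, a fit that tends to understate the spread of values already centred. With 1 library left out the Gars difference was 0.098 to 0.10. Hars, for histidine, lay at -0.04 ± 0.05 and Tars, for threonine, at -0.01 ± 0.05, with an interval for Tars from -0.10 to 0.091. Hars and Hars2 are neighbours that share 4 bases at their ends in the RefSeq annotation (GRCm38.p6). Longer shared stretches there were 3974 bases between Aars and Ddx19b and 2332 bases between Farsb and Sgpp2. Their part in the Aars and Farsb values was not tested.

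In the mitochondrial set the asparagine and glutamate enzymes were called. Nars2, which charges mitochondrial asparagine tRNA, lay at 8.52 and 8.49 in wild type and 8.77 and 8.80 in E79Q. The groups did not overlap, and it rose by 0.28 ± 0.07 (limma adjusted p = 0.00394). Its adjusted p ranged from 0.000562 to 0.0129 over the 11 alternatives in which it was tested. In normalised counts it lay at 159 and 151 against 220 and 230, a 1.45-fold ratio with an interval from 1.199 to 1.77. Ears2, the glutamate enzyme that also charges mitochondrial glutamine tRNA in the first step of an indirect route, lay at 8.55 and 8.49 against 8.67 and 8.73. It was called at the edge, 0.18 ± 0.07 (limma adjusted p = 0.0497), and lost the call in 5 of 11 alternatives, with adjusted p between 0.0501 and 0.0825 in those.

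Of the 14 mitochondrial genes that were not called, Tars2 (0.14 ± 0.05), Fars2 (0.15 ± 0.07) and Rars2 (0.13 ± 0.06), for threonine, phenylalanine and arginine, were higher in both pairs. Their limma adjusted p-values were 0.0609, 0.0859 and 0.126. Vars2 and Wars2, for valine and tryptophan, were also higher in both pairs, by 0.08 ± 0.06 and 0.03 ± 0.07. Aars2 and Hars2, for alanine and histidine, were lower in both pairs, at -0.09 ± 0.06 and -0.05 ± 0.06. In the remaining 7 genes, Cars2, Iars2, Lars2, Mars2, Pars2, Sars2 and Yars2, the pairs pointed in opposite directions and the groups overlapped. The intervals allow sizeable ratios for these enzymes, for example from 0.874 to 1.37 for Cars2 and from 0.787 to 1.15 for Sars2, the serine enzyme.

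The 2 sets were measured at different levels. The cytosolic genes had between 1003 and 13319 normalised counts in a library, with a median of 3618 over genes, and the mitochondrial genes between 150 and 9687, with a median of 327. The moderated SE was 0.043 to 0.058 in the first set and 0.054 to 0.079 in the second. The deposited scale also shrinks differences near its floor: a small log2 ratio keeps a share of 0.488 of its size at the level of Pars2 and 0.980 at the level of Nars. On ratios of normalised counts, obtained by inverting the stabilisation, Nars2 at 1.45-fold took first place among the 36 genes, ahead of Yars at 1.35-fold and Eprs at 1.32-fold, and Ears2 came next at 1.27-fold. The median ratio was 1.09 for cytosolic and 1.05 for mitochondrial genes, and 1.01 for all genes tested. A fit on log2 of these counts plus 1, an alternative chosen after the data had been seen, called 9 cytosolic genes higher and 2 lower and 1 mitochondrial gene higher, with median differences of 0.13 and 0.065.

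**Figure D3:**
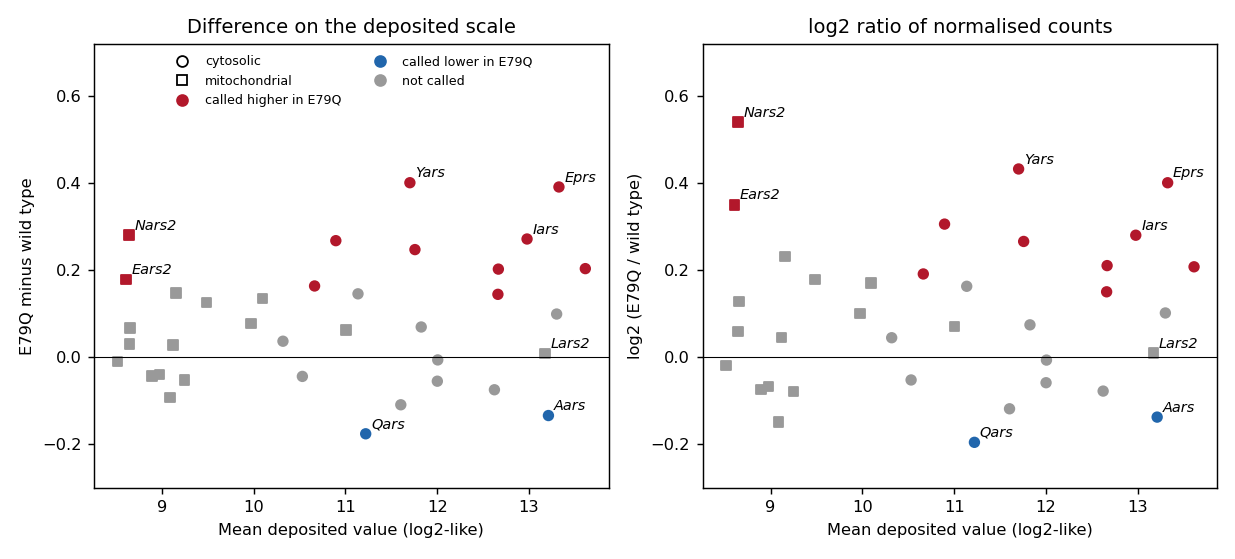
Each synthetase gene by its mean deposited value on the x axis, with the difference on the deposited scale at the left and the log2 ratio of normalised counts at the right (circles, cytosolic; squares, mitochondrial; red, called higher; blue, called lower; grey, not called). Nars2 and Ears2, near 8.6 on the x axis, rise on the ratio scale, where Nars2 lies above Yars.

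Setting each mitochondrial enzyme against the cytosolic enzyme of its amino acid gave 17 combinations, since Eprs and Fars2 each enter more than once. The cytosolic difference was the larger in 11 of them on the deposited scale, and the cytosolic ratio was the larger in 10. The widest gap was for tyrosine, where Yars had a ratio of 1.35 and Yars2 a ratio of 0.955, with intervals from 1.25 to 1.46 and from 0.811 to 1.12 that do not meet. For proline, Eprs had a ratio of 1.32 (interval from 1.24 to 1.41) and Pars2 one of 0.987. For tryptophan, Wars had 1.24 and Wars2 1.04, with intervals that overlap. The cytosolic ratio was the smaller in 7 combinations. One was asparagine, with 1.155 for Nars and 1.45 for Nars2 and intervals that overlap (1.08 to 1.23 and 1.20 to 1.77). Both enzymes were called higher for glutamate and for asparagine, only the cytosolic enzyme was called in 9 combinations, only the mitochondrial one in 0, and neither in 6. These gaps are descriptions, and their differences were not tested.

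**Figure D4:**
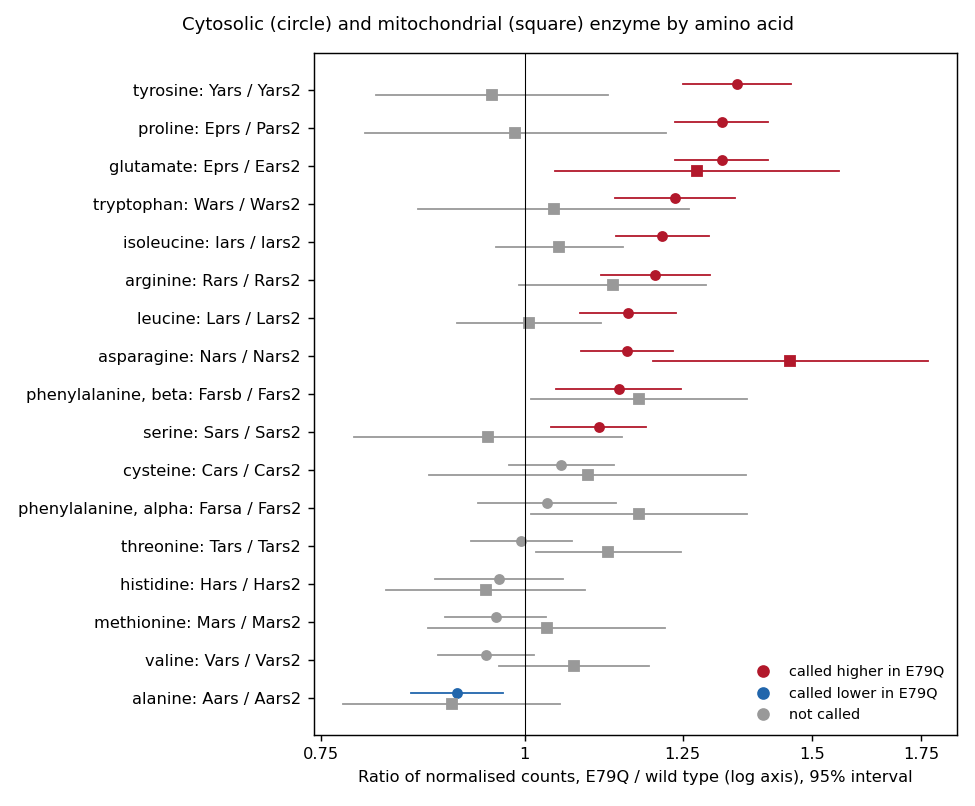
Ratio of normalised counts, E79Q over wild type, on a log axis with 95% intervals, for the cytosolic (circle) and mitochondrial (square) enzyme of each amino acid; red, called higher; blue, called lower; grey, not called. The symbols lie apart for tyrosine and proline, close together for alanine and histidine, and in reversed order for asparagine.

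Per kilobase of the longest annotated coding transcript in GENCODE vM21, an approximate length since the submitters’ annotation is not named, the cytosolic genes had mean normalised counts from 569 in Farsa to 4489 in Nars. Gars followed Nars at 4139 and Eprs stood at 2063. The mitochondrial genes lay between 29.5 in Mars2 and 332 in Iars2, below every cytosolic gene, with the exception of Lars2 at 2314. The value of Mars2 rests on a transcript length of 11294 bases, the longest of the 36 genes. Its normalised counts were 304 to 363 in a library. Lars2 charges mitochondrial leucine tRNA. It had 9624 and 8340 normalised counts in wild type and 8394 and 9687 in E79Q, and so more than the other 15 mitochondrial genes together, which summed to between 6438 and 7087. Its replicates were also the farthest apart of the 36 genes, by 0.20, and its pairs gave -0.19 and 0.21. Rn45s, the ribosomal RNA precursor transcript, was looked at after these values had been seen. It lay at 18.72 and 18.42 in wild type and 18.21 and 18.51 in E79Q, and its part in the Lars2 values was not tested. Like Lars2 it was higher in wild-type replicate 1 than in wild-type replicate 2, and the centring then fixes the opposite order in E79Q for any gene.

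Around the synthetases, some genes of the ATF4 branch had larger differences than any of the enzymes. Atf4 lay at 13.13 and 13.07 in wild type and 13.42 and 13.48 in E79Q, and rose by 0.35 ± 0.05 (limma adjusted p = 2.09e-05). Of the 18 eIF2 alpha kinases and ATF4 regulators, 8 were called higher and 1 lower (50%, against 40.4% of all genes), with a median of 0.091. Ppp1r15a, the subunit that directs dephosphorylation of eIF2 alpha, rose by 1.02 ± 0.05, the pseudokinase gene Trib3 by 0.82 ± 0.05 and the transcription factor gene Atf3 by 0.67 ± 0.07. Eif2ak1, the haem-regulated kinase, fell by 0.16 ± 0.06, a call lost without a filter (limma adjusted p = 0.0616). Of 20 ATF4 targets that are not synthetases, 10 were called higher and 2 lower (60.0%), with a median of 0.12. Slc7a11, the cystine transporter gene and also a target of NRF2, rose by 1.53 ± 0.04, the mitochondrial folate enzyme gene Aldh1l2 by 0.70 ± 0.05 and the neutral amino acid transporter gene Slc1a4 by 0.62 ± 0.05. Ddit4, an inhibitor of mTORC1, fell by 0.86 ± 0.05 and Gpt2, an alanine transaminase, by 0.14 ± 0.05. The Gpt2 call was lost without a filter (limma adjusted p = 0.0539) and without the mean-variance trend (0.0683). These lists were chosen with earlier results of these data known, and their counts are no independent evidence of a direction.

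Most other charging genes reported here were not called, where 40.4% of all genes tested were called. Tarsl2, a paralogue of Tars, rose by 0.18 ± 0.07 (limma adjusted p = 0.0389), a call that was lost after median centring and without a filter. Qrsl1, Gatb and Gatc, the subunits that turn mitochondrial glutamyl-tRNA into glutaminyl-tRNA after Ears2 has acted, lay at -0.01 ± 0.07, -0.02 ± 0.07 and 0.01 ± 0.06. Mtfmt, which formylates the initiator methionyl-tRNA of mitochondria, lay at -0.09 ± 0.07. Pstk and Sepsecs, which act in turn to make selenocysteinyl-tRNA, lay at -0.11 ± 0.07 and 0.17 ± 0.07 and were not called. Of the 5 proofreading factors, which limit errors of charging, only Dtd1 was called (20.0%, against 40.4% of all genes). Their median SE was 0.067, against 0.060 over all genes. Dtd1 was higher by 0.18 ± 0.07 (limma adjusted p = 0.0410). The call was lost without the replicate block (limma adjusted p = 0.0704), after median centring (0.0684) and without a filter (0.0816). Without replicate 2 of either genotype the Dtd1 difference was 0.13. Aarsd1, Ankrd16, Dtd2 and Prorsd1 lay between -0.12 and 0.088.

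Charged tRNA is used by the cytosolic and mitochondrial translation machinery. Among 6 tested cytosolic elongation factors, Eef2, which moves the ribosome along the message, rose by 0.16 ± 0.04 (limma adjusted p = 0.00919). Its difference was 0 after quantile normalization. That method gives equal values to a gene that keeps its rank in every library, so the 0 does not measure a change in level. Eif5a fell by 0.14 ± 0.04, a call lost without the mean-variance trend, and the other 4 were not called. None of 9 mitochondrial translation factors was called, and their differences ran from -0.11 to 0.058. Of 77 mitochondrial ribosomal proteins, 7 were called higher and 9 lower, or 20.8%, with a median of -0.0060. Mrpl57, Mrpl48 and Mrps18b rose by 0.25 to 0.27, and Mrpl49, Mrpl18 and Mrps21 fell by 0.24 to 0.31. Mrps12, the neighbour of Sars2 in the RefSeq annotation, lay at -0.12 ± 0.06. On the side of tRNA supply, RNA polymerase III transcribes tRNA genes. Of 22 genes of this polymerase, its factors and tRNA export, 6 were called higher and 2 lower. That is 36.4%, close to the 40.4% of all genes. The polymerase subunit gene Polr3d rose by 0.56 ± 0.06 (limma adjusted p = 4.25e-06), Bdp1, part of the initiation factor TFIIIB, by 0.31 ± 0.06 and Polr3e by 0.24 ± 0.06. Gtf3c6 and Gtf3c2 of the factor TFIIIC fell by 0.21 ± 0.06 and 0.20 ± 0.05.

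**Figure D5:**
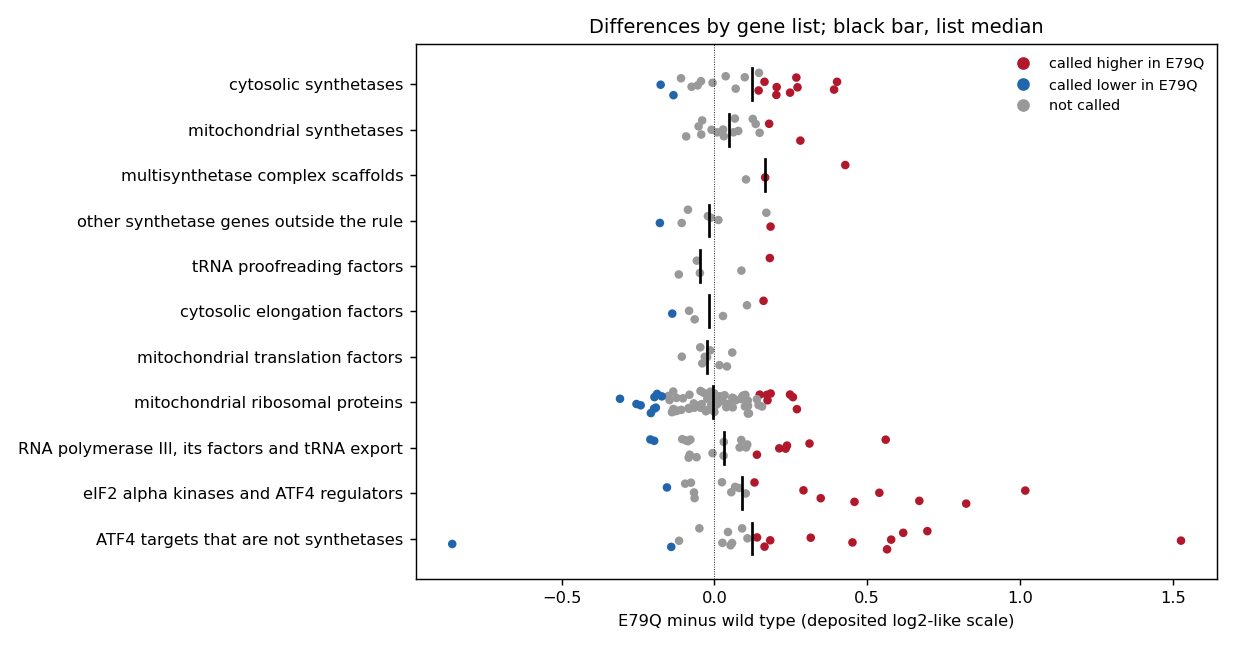
Difference E79Q minus wild type for each tested gene of 11 lists, 1 point per gene (red, called higher; blue, called lower; grey, not called), with the list median as a black bar and vertical scatter for visibility. The ATF4 lists spread up to 1.53 and down to -0.86, the cytosolic synthetases from -0.18 to 0.40, and the mitochondrial translation factors hold no called gene.

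Promoter sequences were compared because cytosolic synthetase genes are known targets of ATF4, which binds with C/EBP partners to a composite element. RefSeq promoters (GRCm38.p6, from 250 bases before to 50 after the start) were at hand for 26 of the 36 members, 12 cytosolic and 14 mitochondrial. The core TGATGNAA, searched on both strands, was found in 5 of the 12 cytosolic promoters (Aars, Gars, Iars, Tars and Yars) and in 0 of the 14 mitochondrial ones, against 3.97% of all 32851 promoters in the table. The sites of 4 of these genes, with the core in capitals (as its reverse complement where the match is on the other strand), read 5′ to 3′ on the strand of the gene:
Gars, chr6:55037960-55037989, plus strand: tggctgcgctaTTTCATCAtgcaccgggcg
Iars, chr13:49682126-49682155, plus strand: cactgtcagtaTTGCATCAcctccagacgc
Tars, chr15:11399655-11399684, minus strand: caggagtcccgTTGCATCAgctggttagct
Yars, chr4:129189895-129189924, plus strand: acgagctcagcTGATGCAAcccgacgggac

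The genes with this core did not share a direction. Counted from the annotated start, the core lies at -30 to -23 in Gars, -15 to -8 in Tars, 4 to 11 in Yars and 8 to 15 in Iars. Yars and Iars were called higher, Aars was called lower, and Gars and Tars were not called. Eprs, Farsb and Sars were called higher and had no match in this window. A match is a stretch of letters and not evidence of binding.

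The core of the antioxidant response element that NRF2 binds with small MAF proteins, TGACNNNGC on both strands, was present in 2 of 12 cytosolic promoters, those of Aars and Iars, and in 3 of 14 mitochondrial ones, those of Aars2, Lars2 and Nars2. It was present in 12.4% of all promoters. The genes with this core did not share a direction: Iars and Nars2 were called higher, Aars lower, and Aars2 and Lars2 were not called. The scaffold promoters of Aimp1 (not called), Aimp2 and Eef1e1 (called higher) also held it. The sites of the mitochondrial gene and the scaffold gene with the largest rises, chosen for their differences, are shown with the core in capitals, 5′ to 3′ on the strand of the gene:
Nars2, chr7:96951521-96951550, plus strand: gagcacggggTGACGTAGCtcagttgcaac
Eef1e1, chr13:38659109-38659138, minus strand: tgccttgagcTGACTCCGCccctttcgcgc

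The Nars2 site lies at 5 to 13 after the start and the Eef1e1 site at -100 to -92. The E-box CACGTG, which is its own reverse complement, was in 4 of 12 cytosolic promoters (Aars, Farsb, Iars and Tars) and 1 of 14 mitochondrial ones (Ears2), against 7.15% of all promoters. Aars and Iars hold all 3 motifs, and their transcripts were called in opposite directions.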

How the data were processed

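Poly(A) RNA sequencing covered 2 wild-type and 2 E79Q libraries, grouped by sample title. The series' design text names another organism and gene, and the title and labels were followed. The authors deposited variance-stabilised expression on a log2-like scale. Tools listed without a role in the submitters' processing notes are Salmon 0.11.3, STAR 2.5.2b, DESeq2 and DESeq 1.22.2, with mouse build mm9, and neither annotation nor strand setting is stated. The sum over both genotypes was equal for replicates 1 and 2 in each of 24444 genes (largest gap 1.31e-13), so the values had been centred on the replicate number before deposit. The numbers pair the libraries for this reason, and the fit holds a replicate block, which leaves 1 residual degree of freedom. With 2 pairs the smallest two-sided exact p is 0.5, and the calls therefore use a spread shared across genes.

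Genes at least 1 above the lowest value in at least 2 libraries were tested (10857) with limma 3.58.1 in R 4.3.3 (lmFit, eBayes with a trend, Benjamini-Hochberg). The prior degrees of freedom were 14.6. Counts were recovered by inverting the stabilisation from its floor of 6.98. Genes with reads in 1 library fell on steps of 1, 2 and 3 reads, and 95.2% to 98.2% of their values were whole within 0.005 reads. Because of the centring, single-library counts are approximate, and the intervals cover the modelled spread only. The fit was tested on simulated data.

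The members and lists were chosen with earlier results of these data known. Named genes are the members, Nfe2l2, Atf4, the scaffolds, other charging genes and proofreading factors, and from each further list up to 3 called genes that rose most and 3 that fell most. One charging gene and 1 promoter site are not reported here. Alternatives were the fit without the block, median centring, quantile normalization, no filter and a stricter one, robust and untrended empirical Bayes, leaving out each library, and log2 counts.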

Additional observations from a re-analysis of the deposited data

How the results depend on the processing

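Without the replicate block 6004 genes were called against 4388 with it, and 15 cytosolic and 4 mitochondrial synthetases against 11 and 2. The values had already been centred, and a fit without the block takes no account of that step. It therefore tends to understate the spread, and its extra calls are no added evidence. The mitochondrial count was 1 after median centring, without a filter, with robust empirical Bayes and on log2 counts. It was 0 with the stricter filter, which left Nars2 and Ears2 untested. It was 3 to 4 when 1 library was left out. Those fits have no block and assume that the lone library of a group varies like the other group, and left-out libraries also gave calls for Dars, Gars, Kars, Fars2, Rars2 and Tars2 and lost that of Ears2 (without E79Q replicate 2). The cytosolic count stayed within 9 to 15. The cytosolic median difference was 0.087 after quantile normalization and 0.092 to 0.12 with 1 library left out. The mitochondrial median, 0.047, was 0.021 to 0.091 with 1 library left out, 0.029 after median centring and 0.028 with the stricter filter. Signs turned only in genes that were not called. Lars2 turned to -0.0088 after median centring and -0.014 after quantile normalization, and Gatc to -0.0049 after median centring. With 1 library left out, Tars ran from -0.015 to 0.0028, Cars2 from -0.016 to 0.15, Lars2 from -0.091 to 0.11, Mars2 from -0.038 to 0.095, Pars2 from -0.040 to 0.021, Sars2 from -0.11 to 0.027, Ankrd16 from -0.11 to 0.016, Gatb from -0.074 to 0.031, Gatc from -0.00081 to 0.027 and Qrsl1 from -0.025 to 0.0012. The cause of these shifts was not tested. Because of the centring, leaving out either library of a replicate pair gave the same difference. The left-out library also still shaped the centred values of the others. The libraries of 1 group number 2, which limits every value here.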
